A study of Mus musculus with 4 samples.

Results

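Cholesterol synthesis was followed through 8 genes, Hmgcs1, Idi1, Fdps, Fdft1, Sqle, Lss, Dhcr7 and Insig1, among the 27827 gene names on a mouse expression array. They were chosen by name, and all non-control probes carrying one of these names were taken, which gave 17 probes. The group is titled synthesis and uptake, but none of the 8 encodes a receptor or carrier of lipoprotein cholesterol. It holds 7 enzymes and Insig1, which controls their transcription, so uptake genes are described from a separate list.

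The samples were 4 lines of mouse embryonic fibroblasts (MEFs), 2 Ip6k1+/+ and 2 Ip6k1-/-, each started from another E14 embryo of 1 litter of heterozygous parents. All 4 lines carried SV40 large T antigen, the viral protein used to immortalise them, and were growing exponentially without any drug or other treatment. Ip6k1 encodes inositol hexakisphosphate kinase 1, which makes inositol pyrophosphates, and the comparison asks which transcripts differ when it is lost from every cell. Total RNA of each line was hybridised to 1 single-colour array, so n is 2 lines per genotype, from a single mating.

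Cells make cholesterol from acetyl-CoA. Acetyl-CoA units are joined to HMG-CoA and reduced to mevalonate, mevalonate is turned into isoprenoid units, and these are condensed to squalene, which is oxidised, closed into the first sterol and trimmed to cholesterol. The genes of the whole route are switched on together by SREBP-2, a transcription factor held in the endoplasmic reticulum by SCAP and the INSIG proteins while sterols are plentiful, and released when sterols fall. The same factor acts on genes of lipoprotein uptake, so synthesis and uptake are usually regulated together, and fibroblasts in medium with serum draw on both.

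Each array carries 60-base probes, and their sequences show what was measured. For 3 of the 17 probes the 60 bases lie over a longer stretch of the genome in the array's mm9 placement, so that the probe joins separate pieces of the gene. These are shown in full, as the array file gives them. The Fdps probe covers 141 bases of chromosome 3, from 88898812 to 88898952 on the minus strand. The Fdft1 probe covers 4241 bases of chromosome 14, from 63765769 to 63770009 on the minus strand. The Insig1 probe covers 473 bases of chromosome 5, from 28401146 to 28401618 on the plus strand.
Fdps A_51_P379798: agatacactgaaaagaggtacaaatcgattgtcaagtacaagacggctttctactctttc
Fdft1 A_51_P485946: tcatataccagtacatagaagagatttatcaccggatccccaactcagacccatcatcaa
Insig1 A_52_P393392: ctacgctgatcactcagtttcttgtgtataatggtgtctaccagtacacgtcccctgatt

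Hmgcs1 and Idi1 need more care, and the first 30 bases of their probes are given. The array file puts the 3 Hmgcs1 probes on the unplaced part of chromosome 13 in mm9, on the minus strand, at 114807 to 114866 (A_51_P146941), 315347 to 315406 (A_52_P119039) and 117667 to 117726 (A_52_P388072). It puts the Idi1 probes on chromosome 2, minus strand, at 53553575 to 53553634 (A_51_P329711) and 53555566 to 53555625 (A_52_P441634), whereas RefSeq places the gene Idi1 on chromosome 13. The accessions listed for both Idi1 probes include the RefSeq transcript of Idi1, and which locus gave the Idi1 signal cannot be told apart here.
Hmgcs1 A_51_P146941: tatgttttgaaaagagtaattttaacgttt
Hmgcs1 A_52_P119039: ggcagtgtcataatgtgactggagtgagaa
Hmgcs1 A_52_P388072: tgcccttgataaaataacagcaagtttatg
Idi1 A_51_P329711: aggcatatattgatactgtgttttgattga
Idi1 A_52_P441634: gatgctaaaattacctttccaggttgtttc

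RefSeq promoters on GRCm38.p6 were at hand for 5 of the 8 genes, and 3 are shown because Hmgcs1 and Insig1 are textbook SREBP targets and Idi1 had the largest difference among the brightest probes. Each is the 250 bases before the annotated start, 5' to 3', on the plus strand. Capitals mark matches, on either strand, of the sterol regulatory element TCACNCCAC, the E-box CACGTG, the CCAAT box CCAAT and the GC box GGGCGG.
Hmgcs1, chr13:119690101-119690350: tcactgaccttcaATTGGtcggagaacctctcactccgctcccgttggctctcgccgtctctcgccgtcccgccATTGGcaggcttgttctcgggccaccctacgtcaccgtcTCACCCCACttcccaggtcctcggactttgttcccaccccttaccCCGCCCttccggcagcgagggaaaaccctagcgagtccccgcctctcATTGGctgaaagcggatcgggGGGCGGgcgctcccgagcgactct
Idi1, chr13:8885356-8885605: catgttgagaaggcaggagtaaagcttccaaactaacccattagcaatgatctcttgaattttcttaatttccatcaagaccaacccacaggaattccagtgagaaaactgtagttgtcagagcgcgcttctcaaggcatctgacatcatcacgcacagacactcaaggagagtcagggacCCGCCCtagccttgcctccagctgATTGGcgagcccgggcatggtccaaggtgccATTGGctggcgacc
Insig1, chr5:28071162-28071411: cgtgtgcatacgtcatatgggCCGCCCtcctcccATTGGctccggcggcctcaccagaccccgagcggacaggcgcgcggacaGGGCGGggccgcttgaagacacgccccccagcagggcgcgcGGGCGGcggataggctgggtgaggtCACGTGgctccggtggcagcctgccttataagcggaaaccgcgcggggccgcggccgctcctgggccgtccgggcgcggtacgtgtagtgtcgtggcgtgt

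Of the 5 genes with a promoter, Hmgcs1 held the sterol regulatory element, as TCACCCCAC from 137 to 129 bases before the start, and 1.05% of all 32851 promoters held one. These genes have 7 promoters in the table, since Dhcr7 has 3 annotated starts. CCAAT boxes stood in 5 of the 7, including 1 of the 3 of Dhcr7, against 33.8% of all promoters, and GC boxes in 6 of the 7, against 32.7%. The E-box stood in Insig1 and in 1 of the 3 Dhcr7 promoters, against 6.02%. No 2 of the marked matches in the 3 printed windows overlapped. A match is only a stretch of letters, and binding was not measured in these cells.

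The targeted gene bore out the labels. Of the 3 Ip6k1 probes, A_51_P213766 and A_52_P413035 were well above background in both Ip6k1+/+ lines and in neither Ip6k1-/- line, at least 34.1-fold and 32.8-fold higher in Ip6k1+/+ (limma, Benjamini-Hochberg adjusted p = 0.0347 for both). For these bounds a dim line was given the weakest signal that its array still called well above background. The third probe, A_51_P103718, stayed above background in every line, at 2.46 and 2.61 in Ip6k1+/+ and -1.98 and -1.23 in Ip6k1-/-, in the log2 units defined with the cholesterol genes, and did not pass (adjusted p = 0.356). The position of the probes relative to the deleted part is not stated in the labels. The arrays called 52.0% to 55.5% of their probes well above background. All 4 arrays lay on 1 slide.

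The cholesterol genes were strongly expressed in all 4 lines, and none passed the test for a genotype difference. Levels are log2 of the Agilent processed signal minus log2 of the 75th percentile of the array, so 0 is the level of that percentile. For 7 of the 8 genes the brightest probe was above 0 in every line, and Insig1 lay near 0. Of the 17 probes, 16 were well above background on all 4 arrays and were tested among 21572 probes. The remaining probe, Fdft1 A_52_P136138, was above background only in Ip6k1-/- replicate 1 and was not tested.

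Of the 16 tested probes 0 reached the threshold of 0.05 after Benjamini-Hochberg adjustment in limma, 0 had an unadjusted p under 0.05, which 3.35% of all tested probes had, and adjusted p-values ran from 0.994 to 0.995. The methods' t-test is the authors' general test for 2 groups and is not named for their arrays. It put the Idi1 probe A_51_P329711 and the Fdps probe A_51_P379798 past an unadjusted 0.05, among 839 of the 21572 tested probes. After Benjamini-Hochberg adjustment 0 probes passed this t-test. Among all probes tested 3 were called, 0.0139%, so the arrays offered few calls of any kind. None of the 16 passed the 2-fold cutoff, which 2.96% of all tested probes passed, and the 95% intervals of the 8 brightest probes all lay between -1.02 and 1.01. The 2 lines per genotype limit the precision, and differences smaller than these intervals could not be detected. Larger differences could also go uncalled, as the adjusted test is stricter than the intervals. The Ip6k1 probe A_51_P103718 was 17.6-fold lower in Ip6k1-/- and was not called (limma, adjusted p = 0.356). In such bulk samples, less RNA per cell and fewer cells of a type cannot be told apart.

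**Figure D1:**
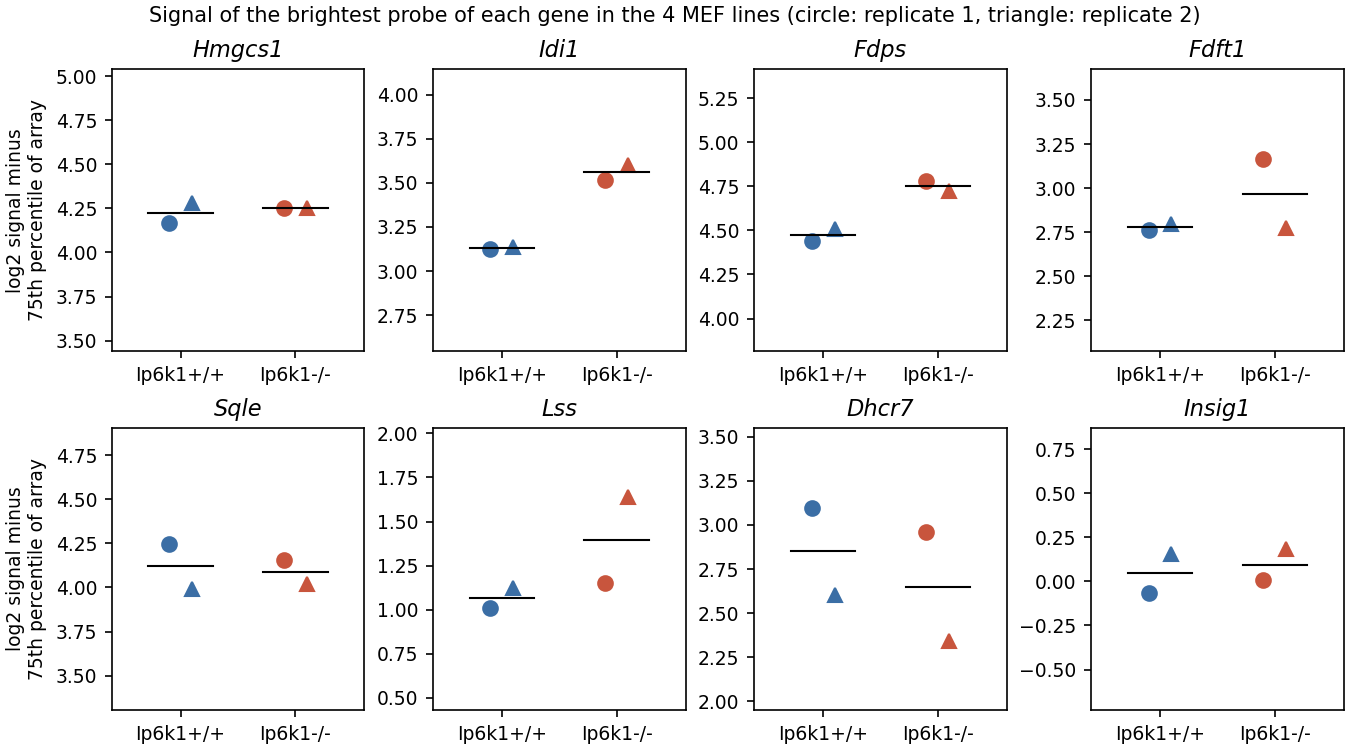
Levels of the brightest probe of each gene, as log2 signal minus the 75th percentile of the array, in 2 Ip6k1+/+ lines (blue) and 2 Ip6k1-/- lines (red), with circles for replicate 1, triangles for replicate 2 and lines for the genotype mean. Each panel spans the same number of log2 units. Idi1, Fdps and Lss have both Ip6k1-/- lines above both Ip6k1+/+ lines, and the other genes overlap.

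Hmgcs1 encodes HMG-CoA synthase, the enzyme just before the committed step. Its brightest probe, A_51_P146941, read 4.17 and 4.28 for Ip6k1+/+ and 4.25 for each Ip6k1-/- line. The Ip6k1-/- values lay between the Ip6k1+/+ values. The log2 difference was 0.03 ± 0.17 (SE), with a 95% interval of -0.42 to 0.48. The other Hmgcs1 probes were dim and gave values of opposite sign. A_52_P388072 read -3.06 and -2.48 in Ip6k1+/+ and -2.04 and -2.10 in Ip6k1-/-, a difference of 0.70 ± 0.35 with no overlap between genotypes. A_52_P119039 read -3.85 and -2.63 in Ip6k1+/+ and -4.03 and -3.28 in Ip6k1-/-, a difference of -0.42 ± 0.56 with overlapping lines. This probe, the only Hmgcs1 probe with a negative difference, matched no RefSeq transcript. Hmgcs1 was the one gene of the 6 with more than 1 tested probe whose probes differed in sign, and the brightest probe itself turned to -0.0060 under quantile normalization and to -0.03 without Ip6k1+/+ replicate 1.

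Idi1 encodes isopentenyl diphosphate isomerase, which makes the reactive isoprenoid unit. A_51_P329711 read 3.12 and 3.13 in Ip6k1+/+ and 3.52 and 3.60 in Ip6k1-/-. Both Ip6k1-/- lines lay above both Ip6k1+/+ lines, with a gap larger than the range of either genotype. The difference of 0.43 ± 0.18 (SE), or 1.35-fold, was the largest of the 8 brightest probes and had the lowest unadjusted p of the 16 tested probes, 0.0627 (limma, adjusted p = 0.994, 95% interval -0.03 to 0.89). The second probe, A_52_P441634, read -0.71 and -1.05 in Ip6k1+/+ and -0.48 and -0.70 in Ip6k1-/-, a difference of 0.29 ± 0.28, and its genotypes were separated by 0.0054. Both probes carry the doubt about their locus given with their sequences.

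Fdps encodes farnesyl diphosphate synthase, which supplies both the sterol branch and protein prenylation. A_51_P379798 read 4.44 and 4.51 in Ip6k1+/+ and 4.78 and 4.73 in Ip6k1-/-. The genotypes did not overlap, and the gap exceeded the range within either. The difference was 0.28 ± 0.17 (SE), 1.21-fold, with a 95% interval of -0.16 to 0.72. The second and far dimmer probe, A_52_P593965, read -2.56 and -1.69 in Ip6k1+/+ and -1.41 and -0.96 in Ip6k1-/-, a difference of 0.94 ± 0.42 that was the largest of all 16 probes. This dimmer probe matched no RefSeq transcript. It lay under the 2-fold cutoff with all 4 lines and passed it without Ip6k1+/+ replicate 2 or without Ip6k1-/- replicate 1.

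Fdft1 encodes squalene synthase, the first enzyme committed to sterols. A_51_P485946 read 2.76 and 2.79 in Ip6k1+/+ and 3.16 and 2.77 in Ip6k1-/-. Only Ip6k1-/- replicate 1 stood apart, and without it the difference of 0.19 ± 0.22 (SE) turned to -0.0050. Sqle encodes squalene epoxidase, a rate-limiting step of the late route. A_51_P450487, the only Sqle probe, read 4.25 and 3.99 in Ip6k1+/+ and 4.16 and 4.02 in Ip6k1-/-. The Ip6k1-/- lines lay within the Ip6k1+/+ range, and the difference was -0.03 ± 0.19, with a 95% interval of -0.54 to 0.48. Its sign turned without Ip6k1+/+ replicate 1 (0.10), without Ip6k1-/- replicate 2 (0.04) and with arrays centred on their median (0.02).

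Lss encodes lanosterol synthase, which closes the sterol rings. A_51_P296487 read 1.01 and 1.12 in Ip6k1+/+ and 1.15 and 1.64 in Ip6k1-/-. The genotypes did not overlap, but Ip6k1-/- replicate 1 was only 0.03 above the nearer Ip6k1+/+ line. The difference was 0.33 ± 0.26 (SE), with a 95% interval of -0.35 to 1.01, and was 0.08 without Ip6k1-/- replicate 2. The other Lss probes gave 0.27 ± 0.27 for A_52_P168028, with genotypes separated by only 0.014, and 0.11 ± 0.35 for A_52_P118161, with overlap. Of the Lss probes, A_52_P118161 matched no RefSeq transcript. In all 3 Lss probes Ip6k1-/- replicate 2 was above Ip6k1-/- replicate 1.

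Dhcr7 encodes the reductase that finishes cholesterol from its last precursor. A_51_P290986 read 3.10 and 2.60 in Ip6k1+/+ and 2.96 and 2.34 in Ip6k1-/-. On this probe the lines numbered 1 were above the lines numbered 2 in both genotypes, and the spread within a genotype exceeded the difference of -0.20 ± 0.31 (SE), whose 95% interval was -1.02 to 0.62. The sign turned without Ip6k1+/+ replicate 1 (0.05) and without Ip6k1-/- replicate 2 (0.11). The dimmer probe A_52_P535946 read -1.60 and -1.10 in Ip6k1+/+ and -1.30 and -1.86 in Ip6k1-/-, a difference of -0.23 ± 0.36 in which the Ip6k1+/+ lines stood in the other order.

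Insig1 encodes an endoplasmic reticulum protein that retains the SCAP and SREBP complex and is itself an SREBP target. A_51_P290207 read -0.06 and 0.15 in Ip6k1+/+ and 0.01 and 0.18 in Ip6k1-/-. The lines interleaved, and the difference was 0.05 ± 0.25 (SE), with a 95% interval of -0.59 to 0.69. The sign turned without Ip6k1+/+ replicate 1 (-0.06) and without Ip6k1-/- replicate 2 (-0.04). The probe that joins separate pieces of the gene, A_52_P393392, read -1.54 and -1.35 in Ip6k1+/+ and -1.24 and -1.10 in Ip6k1-/-, without overlap, a difference of 0.27 ± 0.28.

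**Figure D2:**
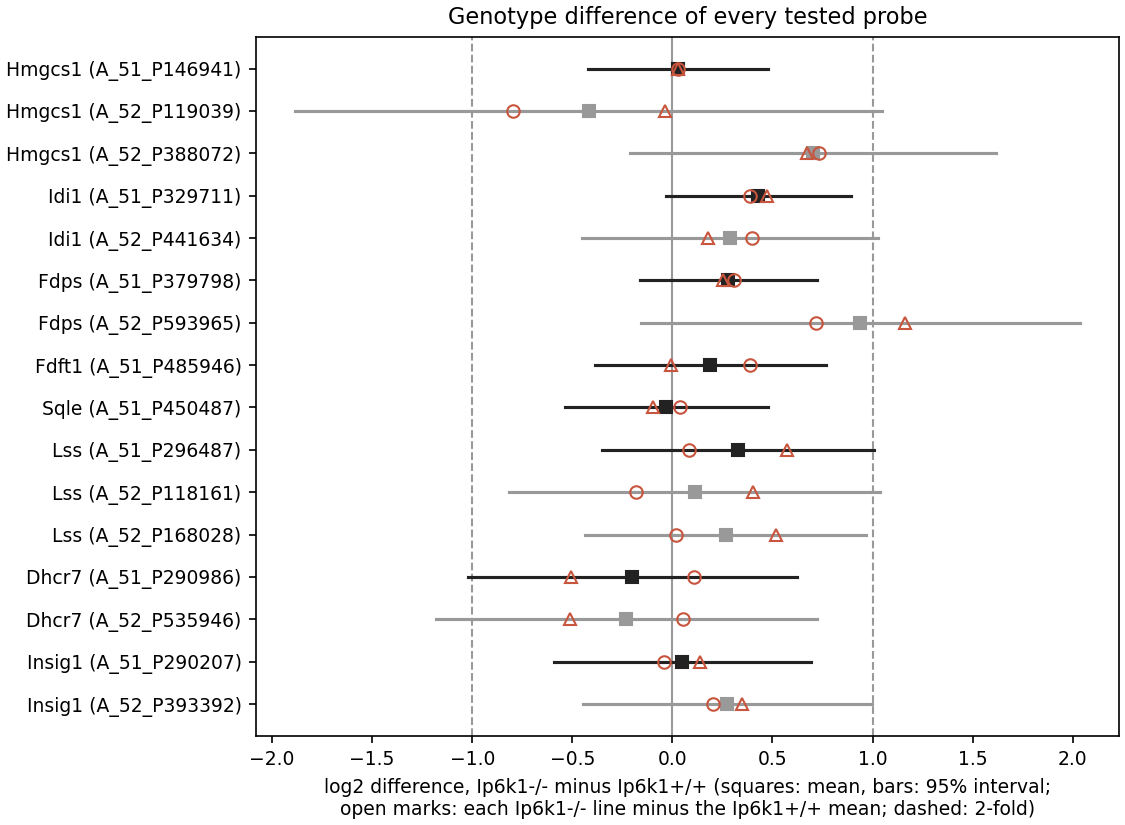
Log2 difference, Ip6k1-/- minus Ip6k1+/+, of the 16 tested probes (squares, black for the brightest probe of a gene and grey for the others), with 95% intervals from limma (bars) and each Ip6k1-/- line against the Ip6k1+/+ mean (circle replicate 1, triangle replicate 2). The dashed lines mark 2-fold. Every interval includes 0.

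Over all probes, 12 of the 16 were higher and 4 lower in Ip6k1-/-. For 8 of the 16 both Ip6k1-/- lines lay above both Ip6k1+/+ lines, against 18.4% of all tested probes. For 0 both lay below, against 2770 of the 21572 tested probes. Probes of 1 gene share their transcripts, so these are not 16 separate measurements. Counted by the brightest probe, 6 of the 8 genes were higher and 2 lower. Both Ip6k1-/- lines were above for 3 genes (Idi1, Fdps and Lss), against 17.8% of the 14193 genes tested, and below for 0, against 13.6%.

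The median difference of the 8 genes was 0.12, against 0.03 for all genes tested, of which 7665 were higher and 6528 lower. It was 0.18 without Ip6k1+/+ replicate 2 and 0.08 without Ip6k1-/- replicate 1. Taken line by line against the Ip6k1+/+ mean, the members' median was 0.10 in Ip6k1-/- replicate 1 and 0.08 in replicate 2, where all genes had medians of 0.01 and 0.06. All genes tested had quartiles of -0.21 and 0.24, and 3 of the 8 (Idi1, Lss and Fdps) lay outside them. The 2 lines of a genotype differed by a median of 0.11 (Ip6k1+/+) and 0.16 (Ip6k1-/-) over the 8 genes, against 0.36 and 0.31 over all genes. These medians were not matched for signal, as the 8 genes were strongly expressed while all genes tested included dim ones. Whether the 8 genes differ less between lines than other genes of like signal was not tested.

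**Figure D3:**
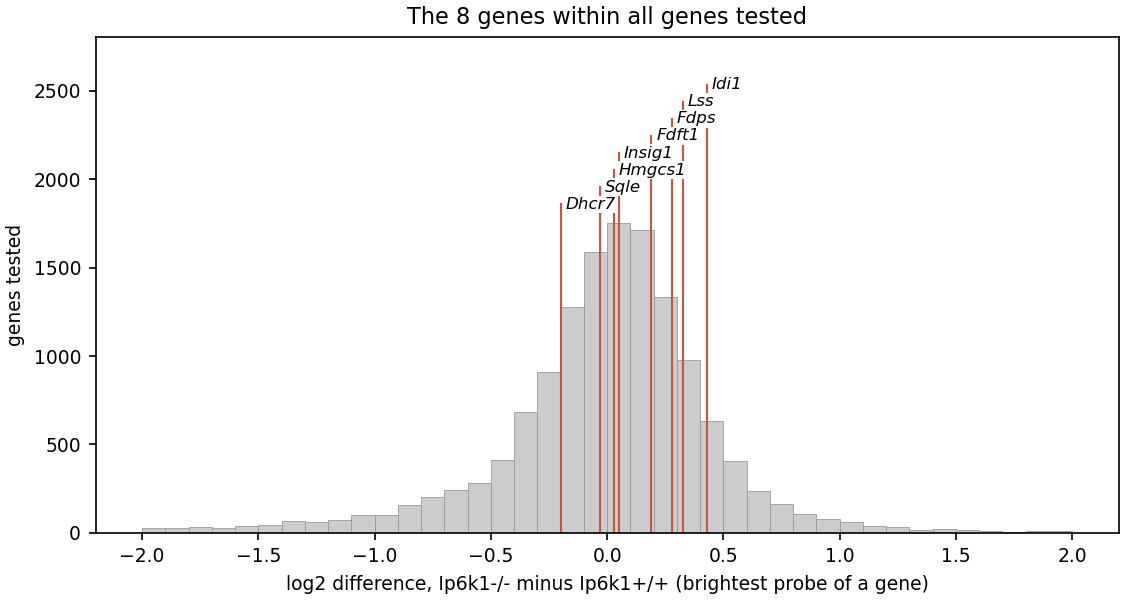
Histogram of the log2 difference, Ip6k1-/- minus Ip6k1+/+, of the brightest probe of the 14193 genes tested in bins of 0.1 (209 genes lie outside the plotted range), with red lines at the 8 genes. The 8 run from -0.20 (Dhcr7) to 0.43 (Idi1), within the bulk of the histogram.

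The rest of the pathway was read from a list of 12 other enzymes. Of these, 0 were called (limma, adjusted p = 0.994 for all) and 2 had an unadjusted p under 0.05, which 3.76% of all genes tested had. Those 2 were Sc4mol and Sc5d. The median difference was 0.23, with 10 higher and 2 lower, and both Ip6k1-/- lines lay above for Sc4mol and Sc5d and below for 1 gene. Sc4mol and Sc5d encode enzymes that trim the sterol after ring closure. Sc4mol, now named Msmo1, a sterol C4 methyl oxidase, read 5.22 and 5.03 in Ip6k1+/+ and 5.60 and 5.74 in Ip6k1-/-. Its difference was 0.55 ± 0.18 (SE). Sc5d, the sterol C5 desaturase, read 3.12 and 3.02 against 3.49 and 3.70, a difference of 0.53 ± 0.19. Tm7sf2, a sterol C14 reductase, read 1.33 and 0.71 against 0.70 and 0.22, a difference of -0.56 ± 0.33.

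Over these 19 enzymes, members included, 15 were higher and 4 lower, with a median of 0.20. Both Ip6k1-/- lines were above for 5 and below for 1, beside 17.8% and 13.6% of all genes. The genes are driven by a shared factor, so these counts are not of independent genes, and no test was made of the list.

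**Figure D4:**
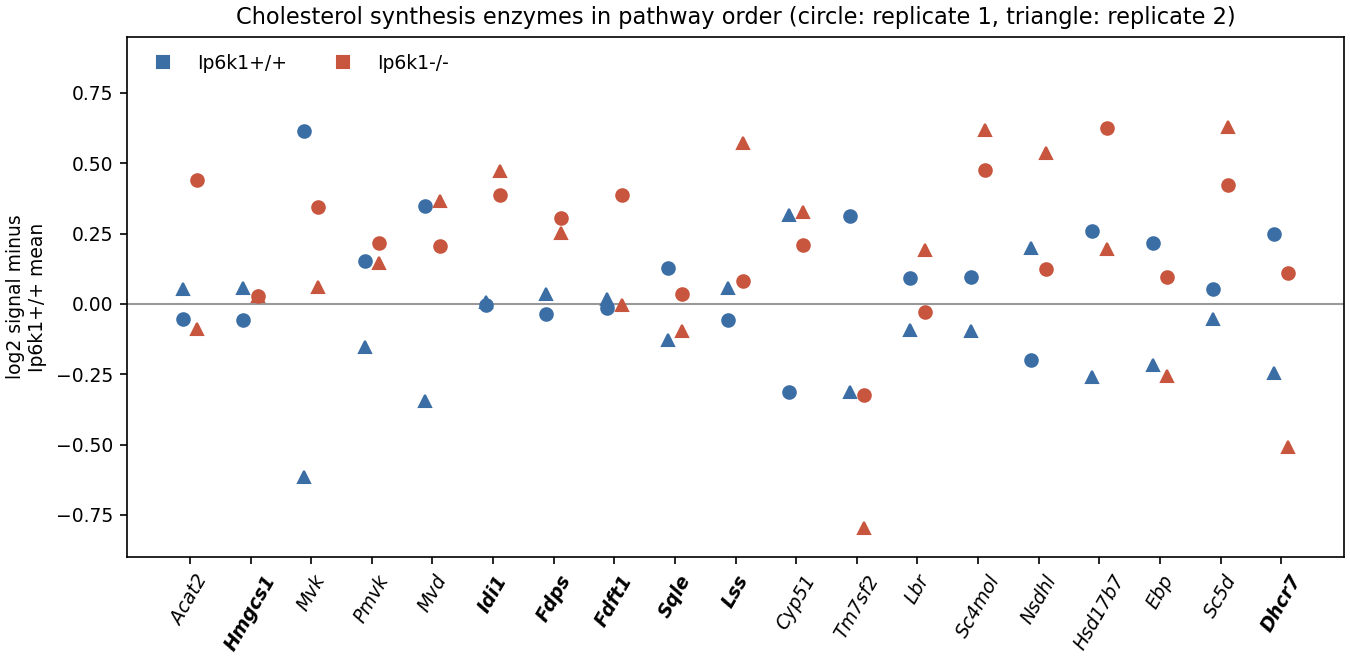
Level of the brightest probe of 19 cholesterol synthesis enzymes in pathway order, in log2 units minus the Ip6k1+/+ mean, for 2 Ip6k1+/+ lines (blue) and 2 Ip6k1-/- lines (red), with circles for replicate 1 and triangles for replicate 2. Bold names are the 7 enzymes among the 8 chosen genes. Both Ip6k1-/- lines lie above both Ip6k1+/+ lines for Idi1, Fdps, Lss, Sc4mol and Sc5d, and below for Tm7sf2.

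Genes that encode or control SREBP did not share a direction. Of the 5 tested (of 6), 3 were higher and 2 lower, with a median of 0.09 and 0 called (limma; 0 at an unadjusted p under 0.05). The smaller of the 2 lower differences was only -0.0057, for a gene whose other probes were higher in Ip6k1-/-. Srebf2, which encodes SREBP-2, read 4.52 and 5.34 in Ip6k1+/+ and 5.26 and 5.34 in Ip6k1-/-. On this probe the difference was 0.37 ± 0.31 (SE), and Ip6k1+/+ replicate 1 alone stood apart. The other Srebf2 probes were also higher in Ip6k1-/-. A_52_P665742 gave 0.20 ± 0.20 without overlap, while A_51_P377508 at 0.23 ± 0.34 and the dim A_52_P302001 at 0.44 ± 0.40 overlapped. Srebf1, which encodes the SREBP-1 forms that act mainly on fatty acid genes, read 5.35 and 4.73 against 4.66 and 4.68, a difference of -0.37 ± 0.26 without overlap. Scap, the SREBP escort, differed by 0.12 ± 0.18, and its genotypes were separated by only 0.0061. SREBP activity depends on processing of the protein, which arrays do not measure.

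The 10 listed genes of cholesterol uptake and endosomal transfer had a median of -0.11, with 3 higher, 7 lower and 0 called (limma; 0 at an unadjusted p under 0.05). Stard4, a sterol carrier in the cytosol and an SREBP target, read 2.01 and 2.08 in Ip6k1+/+ and 2.24 and 2.66 in Ip6k1-/-, a difference of 0.40 ± 0.23 (SE) without overlap. The other Stard4 probes, A_51_P105445 at -0.04 ± 0.34 and A_52_P561205 at 0.08 ± 0.30, overlapped. The lowest difference of the list was that of Vldlr, a lipoprotein receptor, at -0.49 ± 0.49 with overlap, where its second probe, A_51_P500044, gave -0.0041 ± 0.64.

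Among 5 genes of cholesterol efflux and storage, 1 was higher and 4 lower, with a median of -0.48 and 0 called (limma; 0 at an unadjusted p under 0.05). Nr1h2, which encodes the sterol sensor LXR-beta, read 1.77 and 1.78 in Ip6k1+/+ and 1.44 and 1.35 in Ip6k1-/-, a difference of -0.38 ± 0.20 (SE) without overlap. Abcg1, a sterol exporter, was dim and above background on 3 arrays, with a difference of -1.47 ± 0.93. Nr1h3, which encodes LXR-alpha, differed by 0.25 ± 0.75. Of 10 fatty acid synthesis genes under SREBP-1, 7 were higher and 3 lower, with a median of 0.13 and 0 called (limma; 0 at an unadjusted p under 0.05). Fasn, fatty acid synthase, differed by 0.39 ± 0.26 and Acaca, acetyl-CoA carboxylase, by 0.27 ± 0.23, both without overlap on the brightest unsaturated probe. Acss2, which makes acetyl-CoA from acetate, differed by -0.58 ± 0.54 with overlap.

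Markers of cell identity were read beside these values. Of 7 fibroblast markers 6 were well above background on all 4 arrays, and of the other lists 1 of 5 epithelial, 2 of 4 immune and 1 of 4 endothelial markers. Ptprc of immune cells and Pecam1 and Cdh5 of endothelial cells were above background on no array, and neither was the epithelial gene Cdh1. Epithelial Epcam and both probes of Krt8 were above background in Ip6k1+/+ replicate 2 only, the line with the highest Krt18, at 1.57 against -0.65 in Ip6k1+/+ replicate 1 and -1.35 and 0.55 in Ip6k1-/-. Without this line the median difference of the 8 cholesterol genes was 0.18, in place of 0.12.

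The summed signal of the epithelial markers, in units of the array's 75th percentile, was 0.695 and 3.18 in Ip6k1+/+ and 0.476 and 1.55 in Ip6k1-/-. That of the endothelial markers was 0.166 and 0.118 against 0.199 and 0.412, and that of the immune markers 0.847 and 0.734 against 0.855 and 0.684. The fibroblast markers summed to 64.3 and 138 against 64.4 and 77.1, with 3 saturated probes of Col1a1, Col1a2 and Vim left out. The sum of 138 rested in part on Thy1, which read 6.02 in Ip6k1+/+ replicate 2 and 1.42 in replicate 1. Cd68, a lysosomal protein, differed by 0.67 ± 0.40 (SE) and Kdr, a VEGF receptor, by 1.56 ± 0.55, both without overlap, as for Idi1, Fdps and Lss. Cd14 at -0.31 ± 0.28 and Pdgfrb, a fibroblast PDGF receptor, at -1.20 ± 0.19 lay lower without overlap. Krt18 at -0.86 ± 0.98 and Thy1 at 1.03 ± 1.59 overlapped, as did Lum, whose signal in Ip6k1-/- replicate 2 was at background. None was called (limma, adjusted p at lowest 0.795). Pdgfrb (limma, unadjusted p = 0.00164) and Kdr (limma, unadjusted p = 0.0379) were under an unadjusted 0.05, and Pdgfrb passed the 2-fold cutoff. Whether differences in cell makeup bear on the cholesterol genes was not tested.

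Genes outside these lists whose pattern over the 4 lines was near to the members' median pattern included Cdc25c, the nearest (Euclidean distance 0.03), and Dnajc24 (0.04), on log2 levels minus the gene's own mean. The members were less alike than this, since 67.2% of the 13123 candidate genes lay nearer to the median pattern than the farthest member did.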

How the data were processed

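Single-colour Agilent 4x44k arrays of 2 Ip6k1+/+ and 2 Ip6k1-/- MEF lines were used. The authors scanned them with Agilent Feature Extraction 10.5.1.1, and the deposited intensity values are its processed signals, already background-corrected, with probe coordinates on mm9 per the file headers. The deposited log2 values of the series table are the authors' normalized values of the same arrays and served as an alternative. They lay on the same scale and, apart from an offset of 0.084 to 0.102 per array, within a median of 0.0025 of the values computed here, with array medians of -4.13 to -4.04. Control spots and outlier-flagged spots were left out, signals were shifted to the 75th percentile of each array, and spots of a probe were averaged on the log2 scale. Testing took the 21572 of 41174 probes that 1 genotype or both had well above background in each line. It was done with limma 3.58.1 (R 4.3.3; lmFit, eBayes with a trend, genotype only) and Benjamini-Hochberg adjustment at 0.05. The fold cutoff asked for a mean log2 difference of at least 1 and at least 0.9 in each Ip6k1-/- line. A gene was represented by its brightest tested, unsaturated probe. The code was tested on simulated data. Summaries and figures were made in Python 3.11.15.

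Named were the 8 genes, Ip6k1, and from each other list (synthesis enzymes, SREBP control, uptake, efflux and storage, fatty acid synthesis, cell markers) the genes whose lines did not overlap and those with the largest positive and negative difference, plus genes among the 3 nearest. A few genes are not reported here and were left out of the lists, counts and figures that name genes. The genes and lists were chosen with earlier results of these data known. Symbols of 8 of 8 genes and accessions of 14 of 17 probes matched RefSeq. Those without a match were Hmgcs1 A_52_P119039, Fdps A_52_P593965 and Lss A_52_P118161. Alternatives were normexp (offset 50), quantile and median normalization, other filters, the deposited values, limma without a trend, the methods' t-test, a block for the replicate number and fits without 1 array.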

Additional observations from a re-analysis of the deposited data

How the results depend on the processing

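The number of called probes rests close to the threshold, and the members' differences are smaller than 2 lines per genotype could resolve. Called probes over the whole array numbered 3, and 0 under normexp, quantile normalization, the methods' t-test and each leave-one-out fit (0 to 0), and 1 without a filter and with probes above background on all 4 arrays. No member probe was called under any alternative run. Leaving out 1 array gave 0 to 1 member probes past the 2-fold cutoff (Fdps A_52_P593965, without Ip6k1+/+ replicate 2 or Ip6k1-/- replicate 1). The members' median of 0.12 was 0.17 with arrays centred on their median, a shift of 0.05 in all genes, 0.18 as a mean over the probes of a gene, and 0.083 to 0.183 with 1 array left out. Without 1 array the differences ranged from -0.029 to 0.084 for Hmgcs1, -0.16 to 0.10 for Sqle, -0.51 to 0.11 for Dhcr7, -0.061 to 0.159 for Insig1 and -0.0050 to 0.386 for Fdft1, which includes 0 for each. Hmgcs1 also turned to -0.0060 under quantile normalization and Sqle to 0.017 under median centring. Idi1, Fdps and Lss kept their sign in all 13 alternatives, with lowest adjusted p-values of 0.478, 0.575 and 0.592 (limma). The other filters, limma without a trend, the t-test and the block leave the difference itself unchanged, so no sign could turn under them. The cause of these changes was not tested.

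With the replicate number as a block, 3 probes were called in all and 0 of the members, with a lowest adjusted p of 0.512 (limma). The labels link the replicates of the genotypes by a number only, and whether they share anything else was not tested. The correlation of replicate 1 minus replicate 2 between the genotypes was 0.48 over probes. A slide block was not run, since all arrays lay on 1 slide. Where a fit left a genotype with 1 line, that line was assumed to vary like the others.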
